A study of Caenorhabditis elegans with 2 samples.

Results

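The chaperone and protein quality genes hsp-1, hsp-3, hsp-4, hsp-6, hsp-60, hsp-70, daf-21, cdc-48.1, cdc-48.2 and hsf-1 were followed through peak lists from chromatin immunoprecipitation of the forkhead transcription factor FKH-10. They are 10 of the 19973 nuclear protein-coding genes annotated in Caenorhabditis elegans. They were chosen by the measured values of these same lists, so the presence and strength of their peaks are given as a description, with no test. A region was assigned to a gene when its summit lay within 1 kb of the annotated 5' end or inside the gene body, and a summit could be assigned to several genes.

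The assay was ChIP-seq in which DNA bound by FKH-10 was enriched from whole animals and sequenced. Both libraries came from whole larvae of mixed sex at the L3 stage, of unknown age. The strain was OP337, labelled as carrying unc119(ed3) together with the inserted transgene wgIs377, which holds unc119 and encodes FKH-10 with a C-terminal TY1, EGFP and FLAG tag. The labels name neither the promoter of the transgene nor the number of copies, and they list the antibody as fkh-10 only. The samples formed 1 group of 2 biological replicates, with no label of heat shock or another stress, so no contrast between conditions could be made. On genome build ce11 the authors deposited 2005 peaks thresholded by IDR, the irreproducible discovery rate (a measure of how well ranks repeat between replicates), and lists of 30000 candidate regions each for the pooled replicates, replicate 1 and replicate 2. The depth of the libraries is not known from these lists. Signal values are those of the authors' caller. Counted as distinct intervals, 1970 had the same boundaries in the thresholded and the pooled list, so that these lists do not count as separate evidence. Each list has its own scale, so ranks (1 for the strongest region) are used to compare lists.

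Chaperones bind unfolded or partly folded proteins and help them to fold. Hsp70 proteins, their J-protein partners and Hsp90 act in the cytosol, with dedicated forms in the endoplasmic reticulum (ER) and mitochondria, and chaperonins fold proteins inside a ring-shaped chamber. CDC-48, known as p97 or VCP in mammals, is an AAA ATPase that pulls ubiquitin-marked proteins out of membranes and complexes before degradation by the proteasome. HSF-1 is the transcription factor that activates heat shock genes through heat shock elements in their promoters. Among the 10 genes, hsp-1, hsp-3, daf-21, cdc-48.1 and cdc-48.2 were classed as constitutive, hsp-6 and hsp-60 as mitochondrial chaperones made at all times and raised further by mitochondrial stress, hsp-4 and hsp-70 as stress-inducible, and hsf-1 as the regulator. These classes come from general knowledge and not from the files.

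A thresholded summit was assigned to 6 of the 10 genes, against 7.08% of all protein-coding genes. The 6 were cdc-48.1, hsp-1, daf-21, hsp-60, hsp-6 and hsp-3, each with 1 summit. The 4 without were cdc-48.2, hsp-4, hsp-70 and hsf-1. By class, 4 of 5 constitutive genes and both mitochondrial chaperones had a thresholded summit, and neither stress-inducible gene nor hsf-1 had one. In the unthresholded lists, where regions are far more common, 9 of the 10 genes had a pooled region (62.7% of all genes), all 10 had a region of replicate 1 (62.3%) and 9 had one of replicate 2 (62.8%). Since the genes were chosen on these lists, nothing is read from these counts. Most genes in the genome had some candidate region, and the description therefore turns to the strength of the regions.

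**Figure D1:**
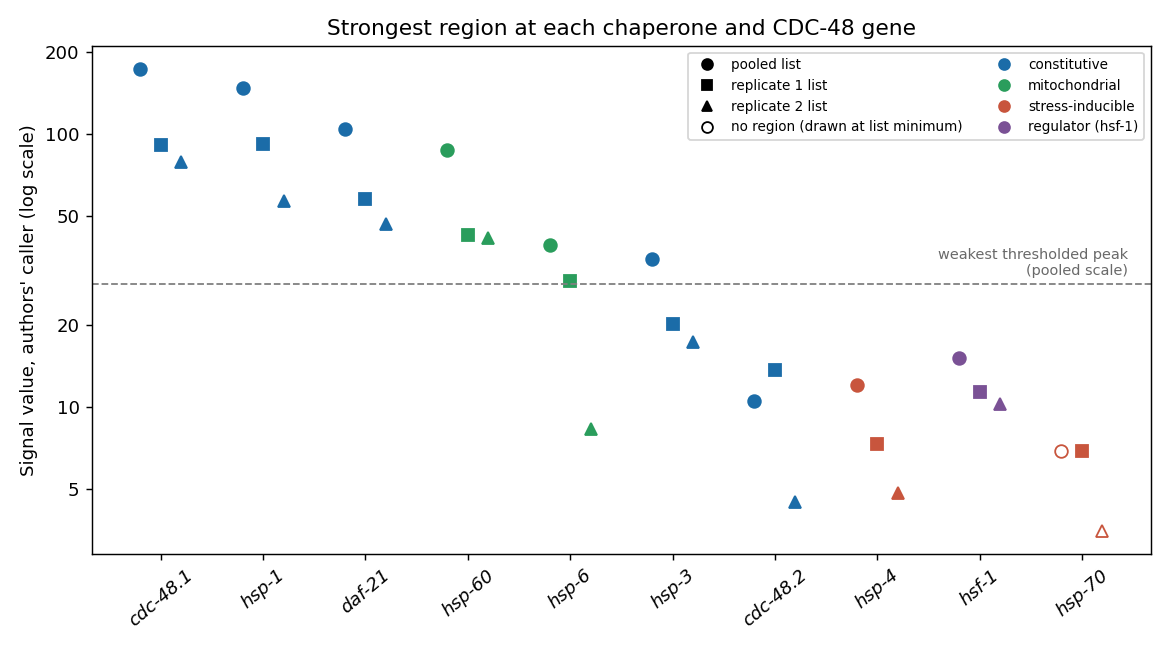
Strongest region at each of the 10 genes, as the authors' signal value on a log axis, in the pooled list (circles), replicate 1 (squares) and replicate 2 (triangles), with colours for the classes. Each list has its own scale, and the dashed line at 28.2 is the weakest thresholded peak and applies to the circles only. The 6 genes at the left have circles from 173 down to 35.0, and the other 4 lie at 15.1 or lower or, for hsp-70, have no pooled region. Open symbols stand at the list minimum where a gene had no region.

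The strongest region among the 10 genes lay at cdc-48.1. This gene (WBGene00007352, chromosome II, 10560036 to 10563407, minus strand) and cdc-48.2 encode the CDC-48 proteins of the worm. Its thresholded peak (chromosome II, 10563486 to 10563648) had a signal of 173, rank 2 of 2005. The summit lay between genes, 153 bp upstream of the annotated 5' end. In replicate 1 the region had a signal of 91.2 and rank 8, and in replicate 2 a signal of 79.2 and rank 2. The summits of the replicates were 5 bp apart, against a median of 41 bp over the 1988 thresholded peaks found in both replicates. Both replicates thus placed a region among their 8 strongest at nearly the same base.

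The paralog cdc-48.2 (WBGene00008053, chromosome II, 8138496 to 8141230, plus strand) had no thresholded summit. Its strongest pooled region had a signal of 10.5 and rank 13003, with its summit in a coding exon 380 bp downstream of the 5' end. Of all protein-coding genes, 35.7% had a pooled region at least as strong, whereas for cdc-48.1 only 2 genes (0.0100%), itself included, reached its signal. In replicate 1 a region of signal 13.7 and rank 3096 lay 928 bp upstream of cdc-48.2, just inside the window. The pooled list held its counterpart just outside, with the summit 1020 bp upstream, a signal of 22.1 and rank 2868. That summit was nearer to the start of ctns-1 on the opposite strand, at 558 bp, than to cdc-48.2. In replicate 2 the only region was at rank 20882, in a coding exon 1025 bp downstream. Replicate 2 held no summit within 2 kb upstream of cdc-48.2, so the pooled region of signal 22.1 had no counterpart there. The paralogs therefore differed by 10.5 against 173 under the rule, and by 22.1 against 173 if the region beyond its edge is taken.

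The coding sequences of cdc-48.1 and cdc-48.2 were 76.6% identical over 2409 aligned bases, and the longest identical run was 35 bases. All words of 36 bases in the gene body of cdc-48.2, in the 1 kb upstream of it and in the thresholded peak of cdc-48.1 occurred once in the genome, and in the 1 kb upstream of cdc-48.1 88.7% did. Reads of that length from the peak could thus be told apart from the paralog. The read length used by the authors is unknown here. The window reaching 50 bp to either side of the summit of cdc-48.1 (chrII:10563510-10563610, minus strand) is shown because this was the strongest site among the 10 genes, and the window at the same distance from the start of cdc-48.2 (chrII:8138293-8138393, plus strand) stands beside it. Sequences are from the RefSeq copy of WBcel235, the assembly of ce11, and read 5' to 3' along the gene. Capitals mark matches, on either strand, to the motifs described further on.
cdc-48.1: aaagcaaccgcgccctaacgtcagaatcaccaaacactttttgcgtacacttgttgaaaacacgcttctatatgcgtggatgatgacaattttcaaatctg
cdc-48.2: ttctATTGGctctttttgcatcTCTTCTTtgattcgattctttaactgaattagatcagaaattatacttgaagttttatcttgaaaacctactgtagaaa
The window at cdc-48.1 held 41.6% G and C and the one at cdc-48.2 held 28.7%, with a median of 43.6% over all thresholded summits and 35.6% over all pooled summits. The first held none of the motifs searched. The second held TCTTCTT, the reverse complement of AAGAAGA, and ATTGG, the reverse complement of CCAAT.

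**Figure D2:**
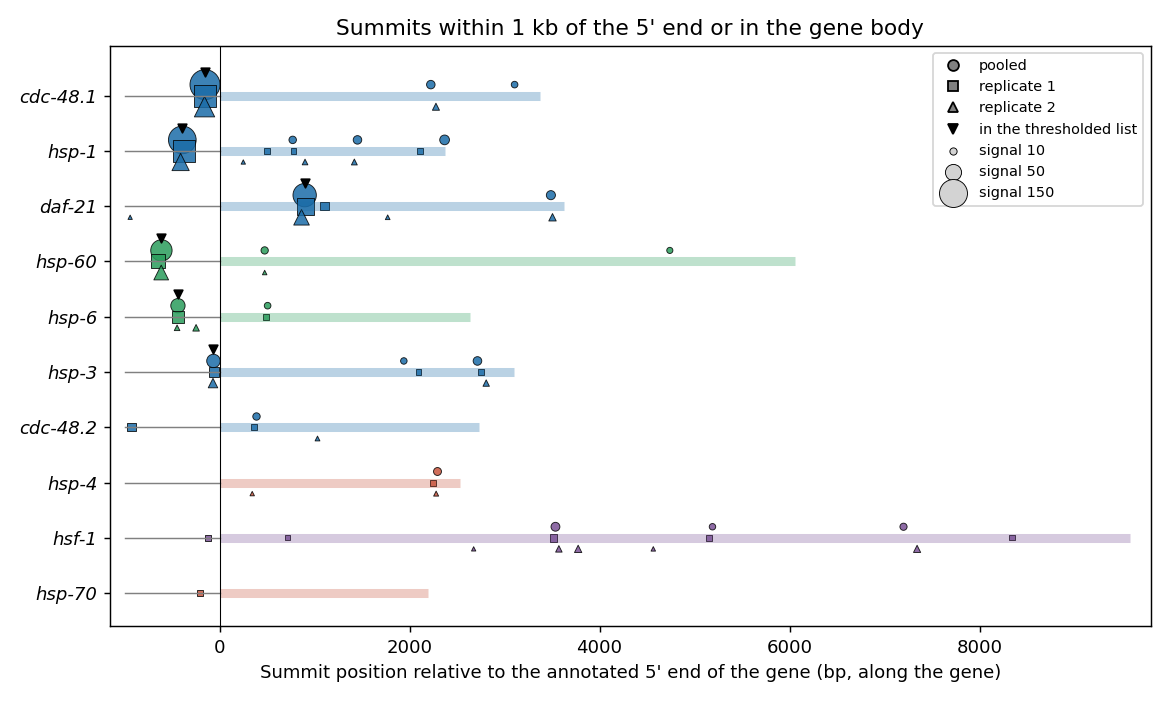
Summits at the 10 genes by distance from the annotated 5' end (bp, along the gene), with the gene body as a coloured bar, symbol area proportional to signal, and rows for the pooled list (circles), replicate 1 (squares) and replicate 2 (triangles). Black arrowheads mark the 6 thresholded summits, which lie upstream of the 5' end except at daf-21, where the summit lies 896 bp inside the annotated gene.

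The cytosolic Hsp70 and Hsp90 genes followed in strength. The gene hsp-1 (WBGene00002005, chromosome IV, 17278959 to 17281330, plus strand) encodes the constitutive Hsp70, and daf-21 encodes Hsp90. At hsp-1 the thresholded peak (chromosome IV, 17278493 to 17278640) had a signal of 147 and rank 6, with the summit between genes and 392 bp upstream. Replicate 1 gave a signal of 92.2 and rank 7, and replicate 2 gave 57.0 and rank 14. Replicate 1 thus ranked hsp-1 and cdc-48.1 side by side, at 7 and 8, while replicate 2 put cdc-48.1 higher. Inside the gene hsp-1 the pooled list held 3 further regions, with signals of 10.7, 13.9 and 18.1. The strongest of these lay at the 3' end of the gene at rank 3931 and was the strongest pooled region at any of the 10 genes that was not thresholded.

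The gene daf-21 (WBGene00000915, chromosome V, 14684918 to 14688545, plus strand) appears as hsp-90 in Ensembl release 115, and the names were matched from general knowledge. Its thresholded peak (chromosome V, 14685632 to 14685995) had a signal of 105 and rank 32. The summit lay in an intron of the longer transcript, 896 bp downstream of the gene's annotated 5' end. It lay 346 bp upstream of the start of the shorter transcript, so its position depends on the transcript taken. It lay also 329 bp upstream of C47E8.4 on the opposite strand. The replicates gave signals of 57.6 (rank 63) and 46.6 (rank 42), with summits 42 bp apart. Of all protein-coding genes, 0.175% had a pooled region at least as strong as daf-21.

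The windows around the summits of hsp-1 (chrIV:17278517-17278617, plus strand) and daf-21 (chrV:14685764-14685864, plus strand) are printed because these held the heat shock element pairs found among the 6 summits.
hsp-1: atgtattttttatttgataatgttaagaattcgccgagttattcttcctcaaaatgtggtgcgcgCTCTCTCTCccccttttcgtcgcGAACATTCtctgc
daf-21: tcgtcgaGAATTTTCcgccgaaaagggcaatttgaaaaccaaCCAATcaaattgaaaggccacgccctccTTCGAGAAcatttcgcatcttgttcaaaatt
The pair was searched as GAANNTTC or TTCNNGAA, which are neighbouring units of a heat shock element in opposite orientation, and each form is its own reverse complement. At hsp-1 the window held GAACATTC, centred 41.5 bp from the summit, and overlapping copies of CTCTCTC. At daf-21 it held GAATTTTC and TTCGAGAA, the nearer one centred 23.5 bp from the summit. A pair was present at 9.03% of all thresholded summits and at 12.7% of all pooled summits.

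The stress-inducible Hsp70 gene hsp-70 (WBGene00002026, chromosome I, 9320325 to 9322519, minus strand), which is barely expressed without heat shock, was nearly free of regions. It had no pooled region and none of replicate 2. Replicate 1 held 1 region, 211 bp upstream, with a signal of 6.87 and rank 14779. The nearest thresholded summit lay 14820 bp from its 5' end, and 2 pooled regions lay within 10 kb of it, against a median of 5 for all genes. The gene lies inside uggt-2 on the other strand. The coding sequences of hsp-1 and hsp-70 were 65.7% identical over 1904 aligned bases, and every word of 36 bases in the body of hsp-70 and in its upstream 1 kb was unique in the genome.

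The ER held a second pair of Hsp70 genes, hsp-3 and hsp-4, both of which encode BiP. The gene hsp-3 (WBGene00002007, chromosome X, 6089028 to 6092124, minus strand) is expressed at all times, and hsp-4 is the member known as a reporter of the unfolded protein response. The thresholded peak at hsp-3 (chromosome X, 6092006 to 6092369) had a signal of 35.0 and rank 1436, the lowest of the 6. Its summit lay 64 bp upstream, the nearest of the 6 to an annotated 5' end. Replicate 1 gave a signal of 20.1 (rank 1591) and replicate 2 gave 17.3 (rank 1112), with summits 7 bp apart. The peak was therefore modest in strength but was placed alike in both replicates.

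At hsp-4 (WBGene00002008, chromosome II, 7350112 to 7352645, minus strand) the strongest pooled region had a signal of 12.08 and rank 9323. It lay 2292 bp downstream of the 5' end, in the gene body, and no pooled region lay upstream of hsp-4 within 1 kb. The strongest region of replicate 1 (signal 7.29, rank 12939) lay 2248 bp downstream and that of replicate 2 (signal 4.82, rank 18425) 2280 bp downstream. A pooled region at least as strong was found for 27.5% of all genes, against 5.15% for hsp-3. The nearest thresholded summit lay 25436 bp away. The coding sequences of hsp-3 and hsp-4 were 77.7% identical over 1971 aligned bases, with a longest identical run of 25 bases. In the 1 kb upstream of hsp-4, 93.9% of words of 36 bases were unique, and all were unique in its body.

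The window at the summit of hsp-3 (chrX:6092138-6092238, minus strand) and the window at the same distance from the start of hsp-4 (chrII:7352659-7352759, minus strand) show the difference in base composition between these promoters.
hsp-3: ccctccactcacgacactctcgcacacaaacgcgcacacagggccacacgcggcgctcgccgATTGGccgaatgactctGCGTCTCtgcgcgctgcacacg
hsp-4: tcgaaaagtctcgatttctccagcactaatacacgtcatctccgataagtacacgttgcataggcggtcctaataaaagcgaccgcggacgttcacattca
The former held 66.3% G and C, the highest of the 6 summit windows, with GCGTCTC, the reverse complement of GAGACGC, and ATTGG. The latter held 46.5% G and C and none of the motifs.

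The mitochondrial chaperones both had thresholded summits, and both lay between divergent genes. The gene hsp-60 (WBGene00002025, chromosome III, 1619742 to 1625803, plus strand) encodes the mitochondrial chaperonin. Its peak (chromosome III, 1618948 to 1619311) had a signal of 87.4 and rank 73. The replicates gave 42.8 (rank 233) and 41.7 (rank 64), with summits 35 bp apart. The summit lay 612 bp upstream of hsp-60 and 201 bp upstream of Y22D7AL.10 on the opposite strand, which encodes the small co-chaperonin that caps the HSP-60 ring. This peak thus stood between the genes for both parts of the mitochondrial chaperonin, nearer to that of the cap, and which gene it belongs to cannot be told from its position.

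The gene hsp-6 (WBGene00002010, chromosome V, 4824124 to 4826760, minus strand) encodes the mitochondrial Hsp70. Its peak (chromosome V, 4827016 to 4827379) had a signal of 39.2 and rank 1146, with the summit 438 bp upstream of hsp-6 and 162 bp upstream of C37H5.5 on the other strand. The replicates differed here. Replicate 1 had 1 overlapping region, with a signal of 29.02 and rank 765, and replicate 2 had 2 weaker ones, with signals of 8.29 (rank 5286) and 6.01 (rank 11676). The weaker region of replicate 2 had its summit 447 bp upstream, next to that of replicate 1 at 438 bp, and the stronger one had its summit 247 bp upstream. The strongest regions of the replicates were therefore 191 bp apart, while replicate 2 also held a region at the place found in replicate 1. The log2 ratio of the rank in replicate 2 to that in replicate 1 was 2.79, and 7.60% of the thresholded peaks found in both replicates had a ratio at least as high (median 0.18). A summit gap at least as wide was found for 5.18% of them. Taking the 2005 strongest regions of replicate 2 in place of the thresholded list, thus without replicate 1, hsp-6 had no summit, while the other 5 genes kept theirs. With the 2005 strongest of replicate 1, all 6 kept theirs.

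The windows at the summits of hsp-60 (chrIII:1619080-1619180, plus strand) and hsp-6 (chrV:4827148-4827248, minus strand) carried CCAAT on either strand.
hsp-60: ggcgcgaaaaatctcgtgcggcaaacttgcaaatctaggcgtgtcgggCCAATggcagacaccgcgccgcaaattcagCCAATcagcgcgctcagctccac
hsp-6: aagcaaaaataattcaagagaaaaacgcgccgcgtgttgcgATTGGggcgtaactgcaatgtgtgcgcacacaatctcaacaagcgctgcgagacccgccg
At hsp-60 the window held CCAAT at 2 places and 59.4% G and C. At hsp-6 it held ATTGG and 52.5% G and C, and it overlapped the annotated non-coding RNA genes C37H5.15 and C37H5.16.

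The regulator hsf-1 (WBGene00002004, chromosome I, 11953507 to 11963085, minus strand) had no thresholded summit. Its gene body, the longest of the 10 at 9579 bp, held 3 pooled regions, with signals of 15.1, 9.89 and 8.01. The strongest, at rank 5560, lay in an intron 3536 bp downstream of the 5' end. Replicate 1 had its strongest region close by, 3517 bp downstream (signal 11.3, rank 4588), and replicate 2 at 3775 bp (signal 10.3, rank 3096). A pooled region at least as strong was found for 17.6% of all genes. Outside the window, a pooled region lay 1837 bp upstream with a signal of 18.5 and rank 3804. The replicates differed there. Replicate 2 ranked its counterpart at 1691, while the nearest region of replicate 1, 1773 bp upstream, had a signal of 6.88 and rank 14727. The nearest thresholded summit lay 28744 bp from its 5' end.

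**Figure D3:**
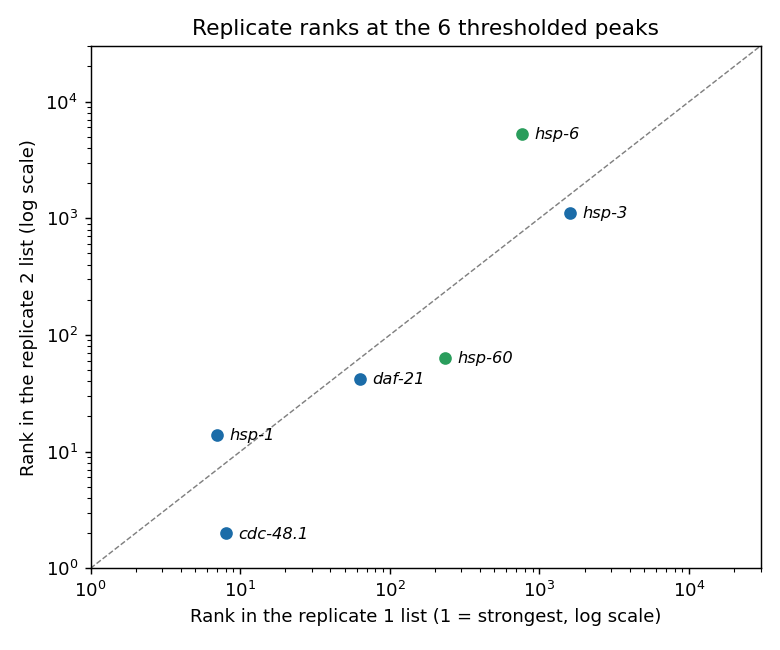
Ranks of the 6 thresholded peaks in the list of replicate 1 (x axis) and replicate 2 (y axis), both on log axes with 1 for the strongest region, and a dashed line where ranks are equal. The gene hsp-6, at 765 and 5286, stands farthest above the line, and cdc-48.1, at 8 and 2, lies lowest.

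At 5 of the 6 thresholded peaks the summit lay between protein-coding genes, against 65.4% of all thresholded summits, and in an intron at daf-21. For the pairs of a thresholded summit and a protein-coding gene start within 1 kb, 85% of the summits lay upstream of the start. At daf-21, hsp-6 and hsp-60 the summit lay within 1 kb of a second start on the opposite strand. Over the whole list, 23.4% of the 850 thresholded peaks with a start within 1 kb lay between divergent starts. Of the members, only the summits of hsp-6 and hsp-60 count by that measure, as the one at daf-21 lay past the annotated start of daf-21. At each of daf-21, hsp-6 and hsp-60 the other gene's start was the nearer one by the annotated 5' ends. When each summit was given only to the gene with the nearest 5' end, 3 of the 10 genes kept a thresholded summit, hsp-1, hsp-3 and cdc-48.1, against 5.60% of all genes under the same rule. At these no other start of a protein-coding gene lay within 1 kb. By summits within 1 kb of the 5' end alone, leaving gene bodies out, the same 6 genes had a thresholded summit, against 5.48% of all genes. The weakest thresholded peaks of the 6 were those of hsp-3 and hsp-6, at signals of 35.0 (rank 1436 of 2005) and 39.2 (rank 1146). By this signal neither was close to the edge of that list, whose lowest signal was 28.2 and median 41.8. Both lay below that median, and in replicate 2 alone hsp-6 was at rank 5286. The pooled regions of the 10 genes and their flanks that came nearest from outside were those at 22.1 upstream of cdc-48.2, at 18.5 upstream of hsf-1 and at 18.1 at the end of hsp-1. By distance, the thresholded summit farthest from a 5' end was that of daf-21 at 896 bp, and the nearest pooled summit beyond 1 kb was that at 1020 bp from cdc-48.2.

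**Figure D4:**
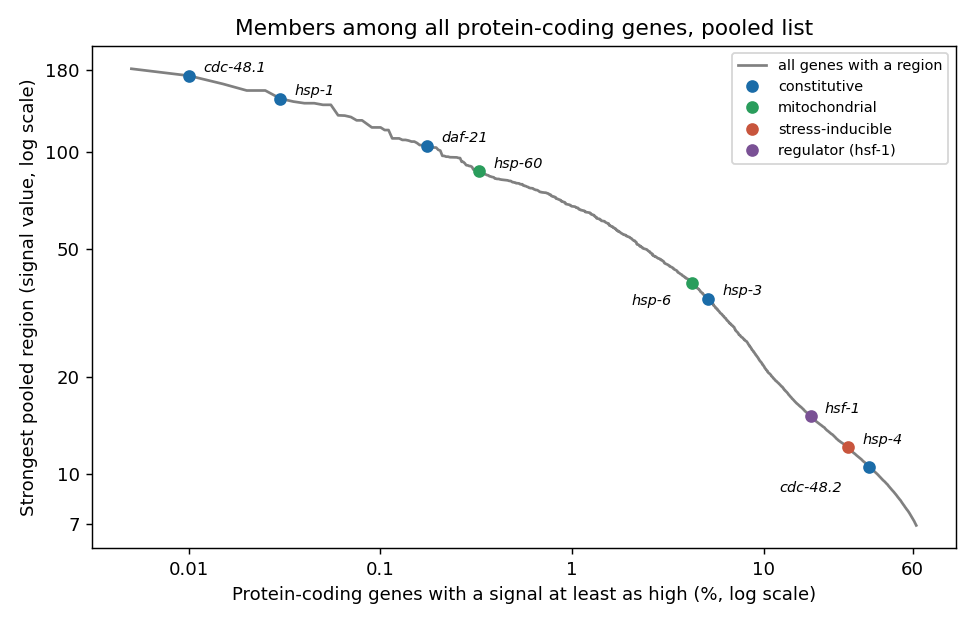
Strongest pooled region of every protein-coding gene that had one (grey line, signal on a log axis) against the percentage of all protein-coding genes with a signal at least as high (log axis), with 9 of the 10 genes marked. The gene hsp-70 had no pooled region and is not drawn. The points run from cdc-48.1 at 0.0100% to cdc-48.2 at 35.7%.

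The motifs were described over windows of 101 bp at the 6 summits. The forkhead core was searched as ATAAACA (or ATAAATA) as well as GTAAACA (or GTAAATA) on both strands. It was in none of the 6, against 5.54% of all thresholded summits and 9.39% of all pooled summits, so this count was near the background. The nearest forkhead match lay 131 bp from the summit at cdc-48.1, 154 bp at hsp-1 and 408 bp at hsp-60, and there was none within 500 bp at the other 3. The pair of heat shock units was in 2 of the 6. CTCTCTC was in 1 (11.5% of all thresholded summits), GAGACGC in 1 (8.63%), AAGAAGA in none (15.2%) and TGACGTGG, the core bound by XBP-1 and ATF6 in mammals, in none (0.549%). CCAAT, which was added after the sequences had been seen, was in 4 of the 6 (hsp-3, daf-21, hsp-6 and hsp-60), against 15.8% of all thresholded summits and 19.3% of all pooled summits. In promoter windows from 250 bp before to 50 bp from the annotated 5' end, a pair of heat shock units was found at 5 of the 10 genes, against 32.5% of all promoters. These were hsp-1, daf-21, cdc-48.1, hsp-4 and hsp-70. CCAAT was in 5 of the 10 promoter windows, against 45.5% of all promoters, a share near the background. The forkhead core was found in the promoter windows of hsp-1, hsp-60 and hsp-70, against 33.9% of all promoters. The 5 genes with a heat shock pair included both stress-inducible genes without a thresholded summit and 3 constitutive genes with one. A match of letters is not a bound site, and no match says only that the letters are missing from the window.

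The genes with the most similar ranks were looked up for the strongest pair, over the pooled list and both replicates, among 8311 genes with a region in all 3. The likeness was the largest difference in log2 rank over the 3 lists. For cdc-48.1 the closest was rpl-3, a gene for a large-subunit ribosomal protein, at ranks 1, 3 and 1 (largest difference 1.42). Then came rpl-20 and Y17G9B.5, which share 1 region, at ranks 5, 6 and 8 (2). For hsp-1 the closest were tasp-1 and K01G5.10, which share 1 region at ranks 9, 10 and 17 (0.58), and ZK1248.17 at ranks 8, 11 and 12 (0.65). The strongest region of the whole pooled list was thus that of rpl-3, with that of cdc-48.1 next.

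The wider chaperone and quality control network was described over 11 lists with 127 annotated genes, of which 117 lay outside the 10. A thresholded summit was assigned to 35 of the 117 (29.9%), against 7.08% of all protein-coding genes. With the 10 included it was 41 of 127. The median of the strongest pooled signal over the 127 genes was 12.7, counting a gene without a region as 0, against 8.496 over all genes. The lists were written with earlier results of these data known, so the shares are a description.

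**Figure D5:**
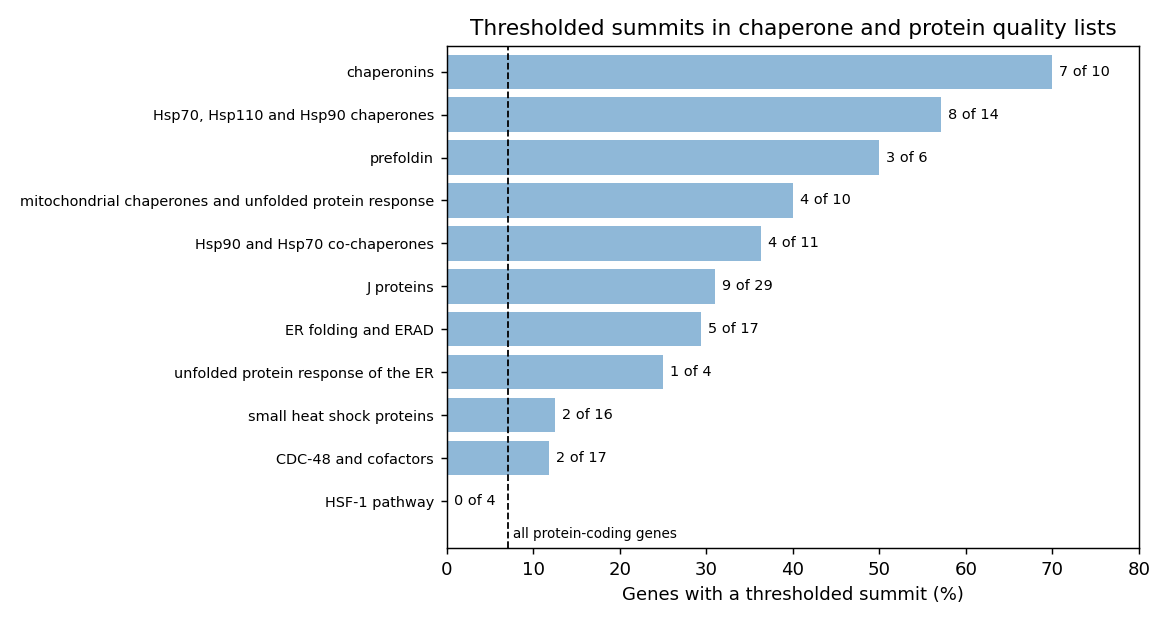
Share of genes with a thresholded summit (%, bars from 0) in each of 11 lists, with counts at the bars and a dashed line at 7.08% for all protein-coding genes. Chaperonins (7 of 10) and Hsp70, Hsp110 and Hsp90 genes (8 of 14) stand highest, and small heat shock proteins (2 of 16), CDC-48 and its cofactors (2 of 17) and the HSF-1 pathway (0 of 4) lowest. The bars include those of the 10 genes in each list, which were chosen by values of the peak lists. Without them chaperonins had 6 of 9 and Hsp70, Hsp110 and Hsp90 genes 4 of 8.

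The families of folding machines come first, and they include forms of the ER and mitochondria. The counts by list stand beside the 7.08% of all protein-coding genes with a thresholded summit. Where a list holds some of the 10 genes, which were chosen on these values, the count without them is also given. Among the Hsp70, Hsp110 and Hsp90 genes 8 of 14 had one, led by hsp-1 and daf-21. These included hsp-3, hsp-6 and enpl-1 of the organelles, which are counted again below, and F44E5.4 and F44E5.5, which share a peak. Outside the 10 genes it was 4 of 8, with F44E5.4 and F44E5.5 among the 4. Of the chaperonin genes 7 of 10 had one, among them the mitochondrial hsp-60 and Y22D7AL.10, which share a peak. Without hsp-60 it was 6 of 9. The strongest were cct-8 (signal 103, rank 34) and cct-7 (signal 96.4, rank 52), which encode subunits of the cytosolic ring that folds actin and tubulin. Prefoldin, which hands proteins to that ring, had 3 of 6, with pfd-1 (signal 46.2) and pfd-3 (signal 44.0) the strongest. J proteins, which stimulate Hsp70, had 9 of 29, led by dnj-12 (signal 68.9) and dnj-13 (signal 63.9). The summit at dnj-12 lay in the 5' UTR of mtx-1 and the one at dnj-13 in an intron of dhgd-1. Co-chaperones of Hsp90 and Hsp70 had 4 of 11, led by ahsa-1 (signal 75.3), the activator of the Hsp90 ATPase, and fkb-6 (signal 53.3), an immunophilin.

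In the organelles and the CDC-48 system the counts were as follows. ER folding and degradation genes had 5 of 17 (4 of 15 outside the 10 genes). They were led by pdi-3 (signal 46.8), a protein disulfide isomerase, and enpl-1 (signal 41.6), the ER form of Hsp90. The ER unfolded protein response had 1 of 4, its transcription factor xbp-1 (signal 48.7, 13 bp upstream). Mitochondrial chaperones and their stress response had 4 of 10, led by hsp-60 and hsp-6. Without these 2 genes it was 2 of 8. Of the 15 cofactors of CDC-48 in the lists 1 had a summit, ubxn-2 (signal 41.8), which encodes an adaptor of CDC-48, against 7.08% of all genes. The median strongest pooled signal of CDC-48 and its cofactors together was 9.51, near the 8.496 of all genes, so this list as a whole stood close to the background. No median was taken over the cofactors alone. The HSF-1 pathway had 0 of 4, hsf-1 included, and 0 of 3 without it.

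Small heat shock proteins and further heat-inducible genes come last, and the genes of the lists beyond the 10 were not classed by inducibility. Small heat shock proteins, which hold unfolded proteins in solution, had 2 of 16. These were hsp-12.3 and sip-1. At hsp-12.3 (signal 40.3, rank 481 in replicate 1 and 20109 in replicate 2) the summit lay between genes, 911 bp downstream of the 5' end and past the 3' end. At sip-1 (signal 34.3) the summit lay in the 5' UTR of sly-1. None of the 6 hsp-16 genes, which are strongly induced by heat, had one, against 7.08% of all genes. A pooled region was found at 4 of the 6, with a signal of 9.37 at most, against 62.7% of all genes, so these counts were near the background. Whether the sequence at these 6 genes is unique in the genome was not examined, so the counts are given without that check. The inducible Hsp70 genes F44E5.4 and F44E5.5, which are divergent neighbours, did share a thresholded summit, 166 and 185 bp upstream of their starts. Its signal was 30.03 and its rank 1819, with ranks of 2027 and 1944 in the replicates. The hsp-16 group and this pair were singled out after their values had been seen. The gene bodies of F44E5.4 and F44E5.5 hold hardly any sequence of their own, with 1.84% and 2.08% of words of 36 bases unique in the genome, whereas 83.0% were unique in the peak between them. A thresholded summit was thus absent at hsp-4 and hsp-70 and present at this pair. As only 7.08% of all genes had one, its absence is the common case, and nothing is read from it about stress-inducible genes.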

How the data were processed

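ChIP-seq of tagged FKH-10 was performed in 2 biological replicates of L3 larvae. Per the file descriptions, each region list was made from the alignments of 1 or both replicates and 1 further file of unstated kind, and the thresholded list from the pooled and both replicate lists. The labels name a possible control experiment, which was not analysed here. The deposited signal value of each region and the −log10 of its q-value, which the authors' caller gave, were used as deposited. At the 6 thresholded peaks of the members −log10 q was 3.52, the highest value in the thresholded and pooled lists. It was the same at the weakest and the strongest of the 6, so it does not rank them. The aligner, the caller and the cut-off of IDR are not given in the sources used. Lists on ce10 were not used.

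Regions were ranked by signal within each list, ties sharing the lowest rank. Genes were those of Ensembl release 115 on WBcel235, and all regions lay within its chromosomes. Summits were assigned to genes with Python 3.11.15 and pandas 2.3.3, and the assignment was tested on simulated data. Replicate regions were matched to thresholded peaks by an overlap of at least 1 bp. Paralog coding sequences were aligned globally with Biopython 1.88. No test was made, since the members were chosen with these values known. Members and lists were chosen with earlier results of these data known. Named were the members, genes whose starts share their summits, the 2 strongest genes of each list and the 3 genes most like cdc-48.1 and hsp-1. The symbols of daf-21, hsp-16.11 and hsp-16.49 were matched to gene IDs from general knowledge, and dnj-6 and hsf-2 were not matched. Alternatives were other windows, interval overlap, the nearest start, the 1002 strongest peaks and each replicate's 2005 strongest regions.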

Additional observations from a re-analysis of the deposited data

How the results depend on the processing

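With each summit given only to the gene with the nearest 5' end, the members with a thresholded summit fell to 3 from 6, and the genes of all lists to 19 from 41, while the share of all genes fell to 5.60% from 7.08%. The cause of the difference between these falls was not tested. With the 1002 strongest peaks the genes of all lists numbered 23, because fewer peaks were used, and 3.68% of all genes had one. Members then numbered 4, without hsp-3 and hsp-6. Leaving out a replicate gave 5 to 6 members and 32 to 35 list genes. Without replicate 1 it was hsp-6 that had no summit. With a window of 500 bp hsp-60 had none, since its summit lay 612 bp upstream. These alternatives together gave 7 losses of a summit at single members, of daf-21, hsp-6 and hsp-60 under the nearest start, hsp-3 and hsp-6 among the strongest peaks, hsp-60 under 500 bp and hsp-6 without replicate 1. No alternative gave a summit to cdc-48.2, hsp-4, hsp-70 or hsf-1. With 2 replicates, 1 stage and unknown depth, a weak region and the absence of a region cannot be told apart.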
